A study of Mus musculus with 3 samples.

Results

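The genes of the DNA replication machinery were examined in mouse embryonic stem (ES) cells that lose Pou5f1, the gene of the transcription factor Oct3/4. The group was a list of 47 genes, taken by name, and its members were all probe sets that the array annotation assigns to 1 of these genes alone. They were 102 of the 45037 probe sets analysed, and they covered 46 of the 47 genes. Chaf1a, the large subunit of chromatin assembly factor 1, was not analysed here. Of the 102 probe sets, 92 had a mean signal over the arrays of at least 55.9, the 40th percentile of all signals, and every gene of the 46 had at least 1 of them. The brightest of these stands for its gene, and 32 of the genes had several.

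All cells carried a conditional Pou5f1 knockout, and total RNA was profiled on Affymetrix arrays at day 0, day 1 and day 2, with 1 array per day and 3 arrays in all. There were no replicates and no cells without the conditional allele, so loss of Oct3/4 cannot be told apart from time in culture or from the inducing treatment, and no test of a difference between days was possible. The study asked how gene expression is affected when Oct3/4 is absent, and the cells were made conditional because ES cells cannot be kept without it. The sources used here give neither the way of induction nor whether the line was 1 clone.

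DNA replication starts at origins, where the origin recognition complex, with Cdc6 and Cdt1, loads rings of the MCM helicase before S phase. The kinase Cdc7 with its partner Dbf4, together with Cdc45, the GINS complex and Mcm10, then turns the loaded ring into a moving helicase. DNA polymerase alpha with primase starts each new strand, and polymerases epsilon and delta extend it, held to DNA by the sliding clamp Pcna. ES cells cycle rapidly with a short gap before S phase, and many replication genes are classical targets of E2F transcription factors.

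The arrays followed their labels. Pou5f1 itself went from a signal of 2400 at day 0 to 40.8 and 15.5 at the later days, both below 55.9. All 10 ES cell markers were measured, and all 10 were at least 2-fold lower at day 2 than at day 0, with a summed signal of 124121, 75496 and 25680 in the order of the days. Of 11 trophectoderm markers 10 were measured, and 9 were at least 2-fold higher at day 2, with a summed signal of 11220, 16679 and 61808. Fibroblast markers were dim, with 6 of 10 below 55.9, among them Col1a1, Col3a1, Postn, Dcn and Lum, and a summed signal between 487 and 718. Fbn1 was not analysed. The 3 measured were Thy1 (400, 275 and 89.3 in the order of the days), Col1a2 (96.8, 102 and 127) and Pdgfrb (60.8, 144 and 123). The replication values below therefore come from cells whose identity markers differ strongly between days, and the part of this shift in them was not tested. In RNA from whole cultures, fewer cells of a kind and less RNA per cell cannot be told apart.

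Most replication genes were slightly lower at day 2 than at day 0, and none of the 46 differed by 2-fold. Differences are of log2(signal + 55.9), so that a value of −1 is 2-fold lower and 1.5-fold is 0.58. The median of the 46 genes was −0.27 at day 2, against 0.05 over all 12717 measured genes. In their brightest probe sets 38 of the 46 (82.6%) were below 0, against 45.9% of all genes. Of the 32 members with several kept probe sets, 20 had all of them below 0 at day 2. In 3 all were above 0, and in 9 they lay on both sides, so the sign of these 9 is not fixed. At least 1.5-fold lower were 10 members, or 21.7%, where 11.8% of all measured genes passed that size. At least 1.5-fold higher were 0 members, where the share of all genes was 14.6%. At least 2-fold, 0 members were higher and 0 lower, beside 5.25% and 5.65% of all genes. The difference between the members and all genes therefore lay in many small shifts of the same sign.

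At day 1 the group was closer to day 0. Its median was −0.07 against 0.04 over all genes, and 30 of 46 members (65.2%) were below 0 against 44.7% of all genes. At least 1.5-fold lower were 3 members, or 6.52%, near the 7.29% of all genes, and 0 were at least 1.5-fold higher, beside 9.62% of all genes. At least 2-fold, again 0 members were higher and 0 lower, beside 2.40% and 2.59%. From day 1 to day 2 the median was −0.21 against 0.0019 over all genes, 38 of 46 members were below 0 against 49.8% of all genes, and 1 member was at least 1.5-fold lower and 0 higher, beside 8.79% and 7.10% of all genes. The counts at 2-fold were 0 and 0, beside 2.65% of all genes lower and 2.09% higher. These comparisons share arrays, day 0 or day 1 or day 2, and are not independent of each other.

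With 1 array per day, the only error that can be given is how far probe sets of 1 gene lie apart, which holds probe error and no variation between cultures. Its pooled SD was 0.34 for day 2 against day 0 over 5906 genes, and 0.21 over the 32 replication genes with several probe sets. For day 2 against day 0, the spread named below is the 0.34 over all genes. A member between 0.21 and 0.34 lies within it but beyond the spread of the replication genes. At day 2, 20 of the 46 members lay more than 0.34 below day 0 and 0 lay more than 0.34 above it, beside 20.7% and 26.6% of all genes. For the other comparisons the pooled SD was 0.30. At day 1, 8 members lay beyond it below day 0 and 1, Cdc6, above, beside 16.8% and 24.5% of all genes, and from day 1 to day 2 there were 16 below and 1, Pola2, above, beside 21.0% and 18.9%. The day 2 column holds 64 control probe sets that the others lack, and whether that array was processed apart was not tested. With the ribosomal protein genes used to level the arrays instead, the median of all genes moved from 0.05 to −0.05 at day 2 and from 0.04 to −0.08 at day 1. The shares of all genes at least 1.5-fold higher and lower were then 11.6% and 14.5% at day 2 and 6.63% and 9.98% at day 1, and those at least 2-fold at day 1 were 1.59% and 3.45%. The median of the replication genes at day 2 was −0.37 under that scaling, and 17 of them were at least 1.5-fold lower. At day 1 their median was then −0.21, and 40 of the 46 were below 0 in place of 30.

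**Figure D1:**
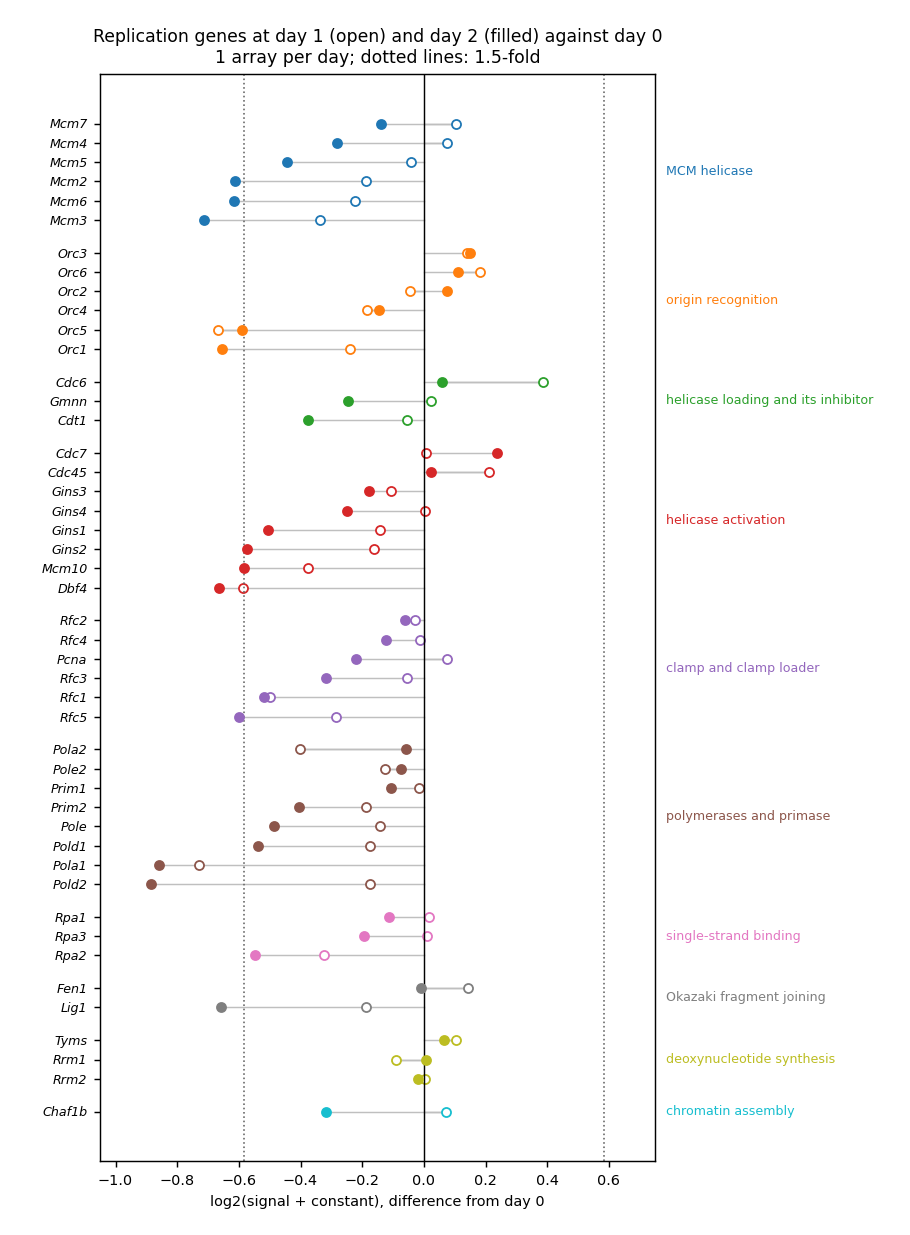
Log2 difference from day 0 (x axis) of the 46 measured replication genes, sorted within role groups, with day 1 as open and day 2 as filled circles, 1 array per day, and dotted lines at 1.5-fold. Most filled circles lie left of 0, from Pold2 at −0.89 to Cdc7 at 0.24, and the 3 genes of deoxynucleotide synthesis sit near 0.

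All 6 subunits of the MCM ring, the motor that unwinds DNA at the fork, were lower at day 2, with a median of −0.53. They were graded. Mcm3 had signals of 10716, 8466 and 6509 in the order of the days, a difference of −0.71 at day 2. Mcm6 had signals of 10955, 9382 and 7132, and a difference of −0.62. Mcm2 had signals of 8853, 7775 and 5765, and a difference of −0.61. These 3 subunits were lower at each later day. Mcm5 had signals of 15194, 14757 and 11166, with nearly all of its difference of −0.44 arising after day 1. Mcm4 had signals of 7770, 8194 and 6381, and Mcm7 of 19629, 21118 and 17806, each highest at day 1 in its brightest probe set. Their differences at day 2 were −0.28 and −0.14, within the probe set spread of 0.34, though Mcm4 lay beyond the 0.21 of the replication genes. In their brightest probe sets the 6 subunits lay closer together from day 1 to day 2, from −0.43 for Mcm2 to −0.25 for Mcm7. From day 0 to day 1 they ran from −0.34 for Mcm3 to 0.11 for Mcm7. For the later step, however, the 2 probe sets of Mcm2 gave −0.43 and −0.69, and the 5 of Mcm3 −0.37 to −0.72. The closeness of the subunits in that step is thus not fixed.

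The probe sets of each subunit had the same sign at day 2. The 5 of Mcm3 gave −0.71 to −0.91, the 2 of Mcm2 −0.61 and −0.84, the 2 of Mcm6 −0.62 and just past 2-fold lower, and the 4 of Mcm7 −0.09 to −0.44. The 3 of Mcm5 gave −0.18 to −0.44. In Mcm4 the brighter probe set gave −0.28 and the other −0.80, so the place of this subunit in the order is not fixed. The ranges of Mcm2, Mcm3 and Mcm6 overlap, as do those of Mcm5 and Mcm7, so the order within these sets is not fixed either. Every probe set of Mcm2, Mcm3 and Mcm6 gave a lower value than any of Mcm5 and Mcm7. The brightest probe set gave the smallest difference for Mcm2, Mcm3, Mcm4 and Mcm6. At day 1 the 2 probe sets of Mcm4 gave 0.08 and −0.24, and the 4 of Mcm7 ran from −0.06 to 0.20. With the arrays levelled on ribosomal protein genes, the brightest gave −0.06 for Mcm4 and −0.03 for Mcm7 at day 1. A peak of these subunits at day 1 is thus not fixed.

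**Figure D2:**
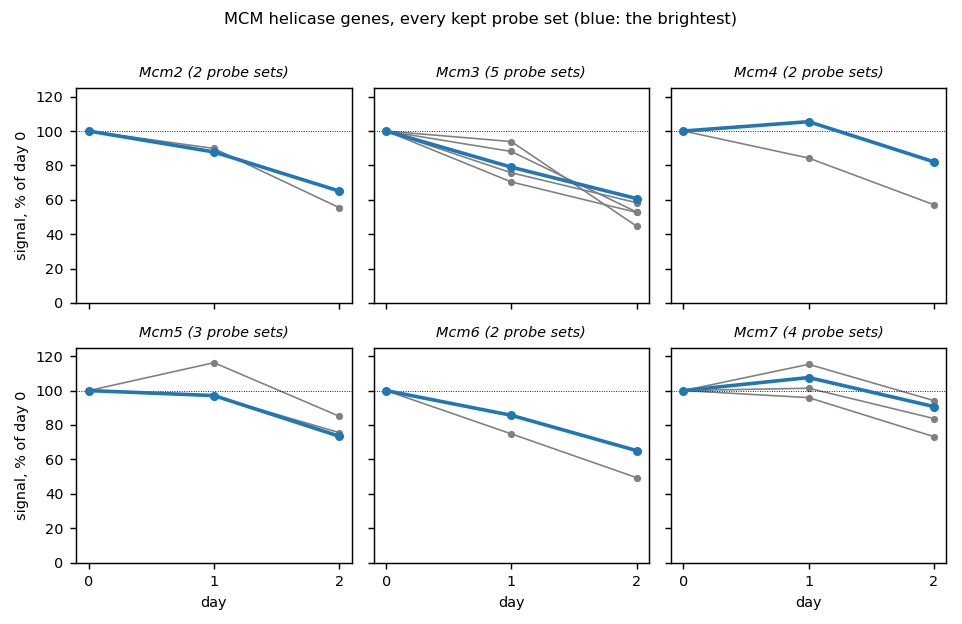
Signal as a percent of day 0 (y axis) by day (x axis) for every kept probe set of the 6 MCM subunits, the brightest in blue and the others in grey. All lines end below 100 at day 2, including the 5 of Mcm3, with the lines of Mcm7 among those nearest to 100.

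Members of the origin recognition complex, which marks the sites where MCM rings are loaded, did not share a direction, and their median at day 2 was −0.035. Orc1, the subunit whose level varies most through the cell cycle, had signals of 2744, 2316 and 1722 and a difference of −0.66 at day 2. Its other probe set gave only −0.14. Orc5 had signals of 3575, 2232 and 2357, so that its difference of −0.67 was already there at day 1 and was −0.59 at day 2. The other subunits stayed within the spread, at −0.15 for Orc4, 0.08 for Orc2, 0.11 for Orc6 and 0.15 for Orc3. In its brightest probe set Orc3 was 1 of only 2 members of the whole group with a higher signal at each later day, 1564, 1727 and 1740. Its other kept probe set gave −0.07 at day 2. The other kept probe sets of Orc2 gave −0.17 and −0.28 at day 2, and those of Orc4 −0.17, 0.14 and 0.32. The sign of Orc2, Orc3 and Orc4 at day 2 is thus not fixed.

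The factors that load the ring also differed among themselves. Cdc6, the ATPase that recruits MCM to origins, had signals of 3187, 4182 and 3321. Its difference of 0.39 at day 1 was the highest of all members, and at day 2 it was back at 0.06. Cdt1, which works with it, had signals of 12931, 12433 and 9946 (−0.38 at day 2), and its 2 probe sets gave −0.38 and −0.48. Gmnn, the gene of geminin, which blocks Cdt1 after loading, had signals of 7108, 7230 and 5985 (−0.25). All 3 were lower at day 2 than at day 1, by −0.27 to −0.33.

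Among the factors that activate the helicase, the subunits of the activating kinase stood at opposite ends. Dbf4, the regulatory subunit, had signals of 7555, 5013 and 4748, with −0.59 at day 1 and −0.66 at day 2. Cdc7, the catalytic subunit, had 1054, 1058 and 1252, and its 0.24 at day 2 was the highest value of the group. The 2 probe sets of Cdc7 gave 0.24 and 0.41. Dbf4 rested on its bright probe set, since the other, with signals of 61.6, 38.4 and 86.9, gave 0.28 and brought the mean of the gene to −0.19. Mcm10, which binds the ring as it is activated, had signals of 3429, 2633 and 2268 and lay just short of 1.5-fold at −0.58, with its other probe sets at −0.41 and −0.06.

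Cdc45 and GINS bind the MCM ring to form the working helicase. Gins2 had signals of 1749, 1558 and 1157 (−0.57 at day 2) and Gins1 of 2673, 2414 and 1868 (−0.50). Gins4 was at −0.25 and Gins3 at −0.18, with the other kept probe set of Gins3 at 0.03. Cdc45 had signals of 2404, 2791 and 2445, highest at day 1 and at 0.02 at day 2. In their brightest probe sets, Cdc45 and the GINS subunits thus spanned a range of 0.02 to −0.57.

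The letters of 4 E2F-type motifs, TTTCGCGC, TTTGGCGC, TTTCCCGC and TTCCCGCC, were searched on both strands of the 250 bases before each start listed by RefSeq in build GRCm38.p6. The last of them overlaps the one before it by 7 letters, and TTTCGCGC can overlap the reverse of TTTGGCGC. Of the 39 members with such a sequence 14 (35.9%) held at least 1 of the motifs, beside 6.38% of 10297 measured genes. The median G and C content of the windows was 61.2% and 59.6%. Both the 39 and the 14 include Chaf1a, which was not measured on the arrays, whereas the 10297 are measured genes only. Of the members at least 1.5-fold lower at day 2, 3 of 10 held a motif, and of the other measured members 10 of 28. A further motif, CCAAT, which is bound by NF-Y, was in 61.5% of the 39 members and 40.5% of measured genes. A match is only a match of letters. The 60 or fewer bases around a match are shown for members that were lower at day 2 (Mcm5, Mcm6, Orc1 and Pola1) and for members that were not (Cdc7 and Rrm1), 5′ to 3′ on the strand of the gene with the motif or its reverse in capitals.

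Mcm6: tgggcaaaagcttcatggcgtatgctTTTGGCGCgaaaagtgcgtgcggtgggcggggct

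Mcm5: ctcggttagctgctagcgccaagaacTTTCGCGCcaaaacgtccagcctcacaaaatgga

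Orc1: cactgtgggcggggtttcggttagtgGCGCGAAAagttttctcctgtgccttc

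Pola1: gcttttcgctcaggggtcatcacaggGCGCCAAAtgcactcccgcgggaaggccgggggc

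Cdc7: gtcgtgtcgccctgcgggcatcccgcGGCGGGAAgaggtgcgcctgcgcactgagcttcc

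Rrm1: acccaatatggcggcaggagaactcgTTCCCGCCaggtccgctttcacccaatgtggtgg

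These stretches lie at chr1:128359782-128359841 on the minus strand for Mcm6, chr8:75109330-75109389 on the plus strand for Mcm5, chr4:108579401-108579453 on the plus strand for Orc1, chrX:93632260-93632319 on the minus strand for Pola1, chr5:106964499-106964558 on the plus strand for Cdc7 and chr7:102441602-102441661 on the plus strand for Rrm1. The motif begins 110 bases before the start in Mcm6, 153 in Mcm5, 27 in Orc1, 138 in Pola1, 36 in Cdc7 and 67 in Rrm1. In Mcm6 and Mcm5 the forward and the reverse form overlap, as TTTGGCGCgaaa and TTTCGCGCcaaa, and Mcm6 has a second match 47 bases before the start. Among the measured members with a motif, the difference at day 2 thus ran from −0.86 for Pola1 to 0.24 for Cdc7.

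The sliding clamp and its loader were lower in the brightest probe sets of all 6 genes at day 2, mostly by little. Pcna, the ring that holds polymerases on DNA, had signals of 23490, 24750 and 20139 and a difference of −0.22. Of the loader subunits Rfc5 had signals of 7495, 6140 and 4926 and a difference of −0.60, the largest of the 6. Rfc1, the large subunit, had 2050, 1435 and 1415 in its brightest probe set, with nearly all of the difference of −0.52 present by day 1. Its other probe sets gave −0.37 and −1.09, of which −0.14 and −0.37 arose after day 1. The value of −1.09 was 1 of only 2 kept member probe sets at least 2-fold lower, the other being that of Mcm6. Rfc3 (−0.32) and Rfc4 (−0.12) stayed within the spread of 0.34 over all genes. Rfc3 lay beyond the 0.21 of the replication genes, and its other probe set gave −0.29. The other kept probe set of Rfc4 gave 0.02, so the sign of Rfc4 is not fixed. The brightest probe set of Rfc2 gave −0.06, the smallest of its 3 values, and the others −0.28 and −0.56.

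In their brightest probe sets, the polymerase and primase genes held the 2 largest differences of the group. All 8 were below 0 at day 2 in these probe sets, with a median of −0.45. Pold2, the small subunit that holds polymerase delta together, had signals of 4186, 3698 and 2239. Its difference of −0.89 at day 2 was the lowest of all members, and −0.71 of it arose after day 1, where it was the only member past 1.5-fold. Pola1, the catalytic subunit of polymerase alpha, had signals of 1362, 800 and 725, a difference of −0.73 at day 1 and −0.86 at day 2. Each is measured by 1 kept probe set, so neither has a second value to set beside it. Most of the difference lay in the later step for Pold2 and in the earlier step for Pola1.

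Partner subunits of the same polymerases differed from them. Pola2, the regulatory subunit of polymerase alpha, had signals of 1705, 1277 and 1637, lower by −0.40 at day 1 and at −0.06 at day 2. The primase genes Prim1 and Prim2 were at −0.11 and −0.41, the other kept probe set of Prim2 giving −0.15. Pold1, the catalytic subunit of polymerase delta, had signals of 2780, 2455 and 1896 (−0.54), and its other probe set gave −0.73. Pole, the catalytic subunit of polymerase epsilon, was at −0.49 with signals of 1778, 1607 and 1253, and its partner Pole2 at −0.07. The other kept probe set of Pole2 gave 0.10 at day 2, and that of Prim1 −0.0008. The sign of Pole2 at day 2 is thus not fixed.

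Genes acting on single strands and on Okazaki fragments, the short pieces of the lagging strand, split in the same way. Rpa2, a subunit of the protein that coats single-stranded DNA, had signals of 4048, 3220 and 2754 (−0.55), and its probe sets gave −0.52 and −0.55. Rpa3 was at −0.19, and the 2 probe sets of Rpa1 gave −0.11 and −0.39, on either side of the spread. Lig1, the ligase that seals the fragments, had signals of 4374, 3834 and 2749 and a difference of −0.66. Fen1, the nuclease that trims the fragments before sealing, had 3563, 3938 and 3539 and a difference of −0.01. Chaf1b, which helps to deposit histones behind the fork, had 2207, 2321 and 1761 (−0.32).

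Of the role groups, the 3 members that make deoxynucleotides were the flattest. That does not extend to nucleotide supply more widely, where 16 of 19 further genes were below 0 at day 2, with a median of −0.30. Rrm1, the large subunit of ribonucleotide reductase, had signals of 5606, 5266 and 5629, and Rrm2, the small subunit, of 15311, 15335 and 15113. Their differences at day 2 were 0.01 and −0.02, and the 3 probe sets of each gave 0.01 to 0.14 for Rrm1 and −0.02 to 0.23 for Rrm2. Tyms, the gene of thymidylate synthase, had signals of only 164, 180 and 174 (0.07), so a change in it would be compressed by the added constant. Its other kept probe set, dimmer still, gave −0.12 at day 2, so the sign of Tyms is not fixed.

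The members were also sorted by the order of their signals over the 3 days, with no limit on the size of a step. In 24 of the 46 the signal was lower at each later day, and in 14 it was highest at day 1. In 6 it was lowest at day 1, and in 2, Orc3 and Cdc7, it was higher at each later day. Shares of all genes with these orders were not computed, so whether the counts are unusual was not tested. Among the 14, the difference at day 1 ran from 0.002 for Rrm2 to 0.39 for Cdc6. Only Cdc6 lay above day 0 by more than the probe set spread of 0.30 over all genes. Of the 10 members at least 1.5-fold lower at day 2, the larger step came from day 0 to day 1 in 3, Pola1, Dbf4 and Orc5. It came from day 1 to day 2 in the other 7, Pold2, Mcm2, Mcm3, Mcm6, Lig1, Orc1 and Rfc5. The steps were nearly equal for Mcm3 (−0.34 and −0.38) and Rfc5 (−0.29 and −0.31), so their place in this split is not fixed. Kept probe sets of Mcm3, Orc1 and Dbf4 differed in which step was larger. Both steps use the day 1 array, so an error in its signal would push them in opposite directions.

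**Figure D3:**
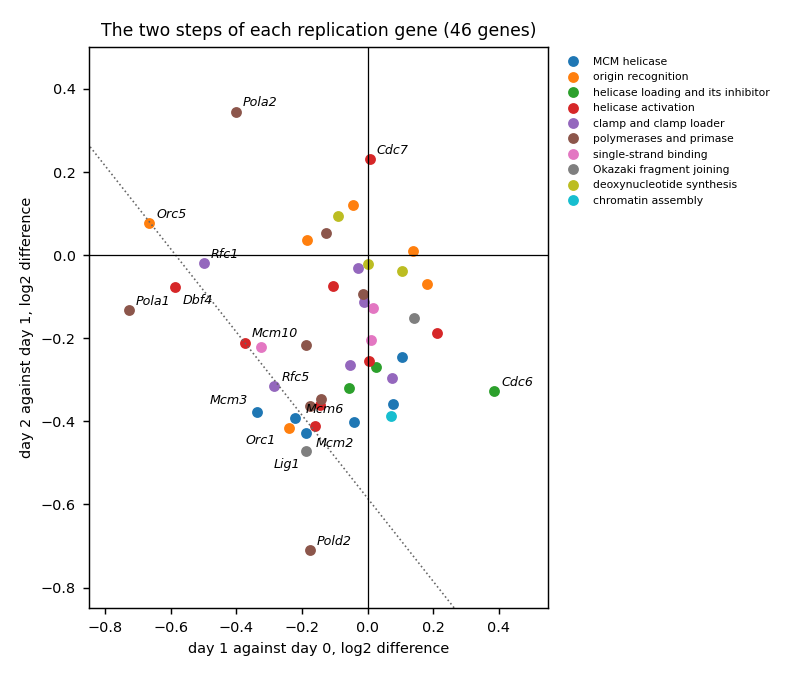
Log2 difference of day 1 against day 0 (x axis) and of day 2 against day 1 (y axis) for the 46 replication genes, coloured by role, with a dotted line where the sum is 1.5-fold lower at day 2. Pola1, Orc5, Dbf4 and Rfc1 lie at the left near a second step of 0, the MCM genes lie below 0 on the y axis, and Pold2 lies lowest.

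Other genes of the pathway, in 4 lists, had medians of −0.14 to −0.30 at day 2. Of 40 measured further fork and origin proteins (42 names, of which Cdt2 is another name of Dtl), 29 were below 0 at day 2, 6 were at least 1.5-fold lower and 2 higher, beside 11.8% and 14.6% of all genes, and the median was −0.20. Ticrr, which helps to bring Cdc45 to origins, had signals of 1939, 1789 and 664 (−1.47), and Hells, a chromatin remodelling ATPase, 10029, 6191 and 3594 (−1.47). They were the 2 at least 2-fold lower, and 0 were at least 2-fold higher, beside 5.65% and 5.25% of all genes. Both exceeded every member of the group itself in size.

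Of the 18 measured E2F, pocket protein and MuvB genes, which regulate S phase and mitotic transcription, 2 were at least 2-fold lower and 1 higher at day 2, beside 5.65% and 5.25% of all genes, with a median of −0.14. Mybl2, the gene of B-Myb, had signals of 8633, 5282 and 3551 (−1.27), and E2f2, an activating E2F, 232, 176 and 76.4 (−1.12). E2f6, a repressing E2F, had 906, 1327 and 1977 (1.08). Of 11 S phase cyclin and kinase genes 0 passed 2-fold and the median was −0.15, from the checkpoint kinase gene Chek1 at −0.98 to the cyclin gene Ccna2 at 0.32. Of 19 nucleotide supply genes 16 were below 0 and 5 at least 1.5-fold lower, beside 11.8% of all genes, with a median of −0.30, from the dUTPase gene Dut at −0.78 to Rrm2b at 0.23. Ssrp1 was not analysed here.

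**Figure D4:**
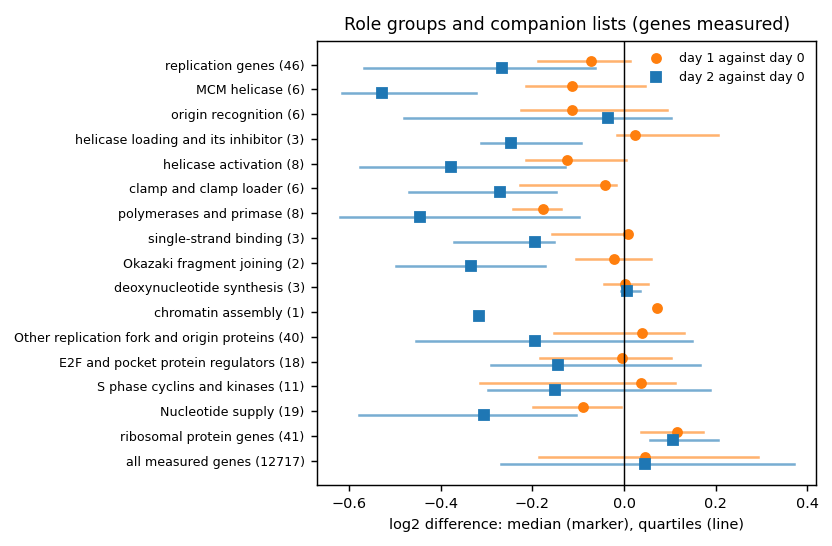
Median (marker) and quartiles (line) of the log2 difference from day 0 (x axis) at day 1 and day 2 for the replication genes, their role groups, the companion lists, ribosomal protein genes and all measured genes, with the number of genes in brackets. At day 2 the MCM subunits lie lowest at −0.53 and the polymerases and primase next at −0.45, while deoxynucleotide synthesis sits at 0.01 and all genes at 0.05.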

How the data were processed

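The values are microarray intensities, 1 linear signal per probe set and array, deposited by the authors. MAS5 was used per the submitters' processing notes, with no version stated. The deposited signals shared a 2% trimmed mean of 498 on each array. The 64 control probe sets, given for day 2 only, were left out. Arrays were scaled to equal 2% trimmed means, 55.9 (the 40th percentile of all signals) was added, and log2 was taken. Adding this constant understates differences of dim genes. Probe sets with a mean signal of at least 55.9 were kept (26925 of 45037). Annotation gave 1 gene to 34945 probe sets, several to 932 and none to 9160. The brightest kept probe set stands for its gene (12717 genes). Of the 46 genes, 15 are represented by a probe set whose ID ends in _x_at, _s_at or _a_at, which may bind other transcripts. All 46 genes are in the text or plots. Members at least 1.5-fold different and the ends of each role group are given with values by rule, and further members were added to complete their complexes after values were seen. Of other lists, up to 4 genes each way past 2-fold, or else the ends, are named. Members, lists and sizes were chosen with earlier results of these data known. Alternatives changed the constant, filter, scaling and choice of probe set. The summary was run on copies of the day 0 array with known fold changes put in and no noise, which checks its arithmetic only. Python 3.11.15, numpy 2.4.6 and pandas 2.3.3 were used.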

Additional observations from a re-analysis of the deposited data

How the results depend on the processing

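Over 8 alternatives (constant at the 20th or 60th percentile, no filter or a filter at the 60th percentile, quantile normalisation, equal medians of ribosomal protein genes, the mean over probe sets, and leaving out IDs that end in _x_at, _s_at or _a_at), 118 of 120 recomputed medians and counts of the replication genes stayed close to their reported values. The exceptions came with equal ribosomal protein medians, where the median at day 1 was −0.21 in place of −0.07 and 17 members in place of 10 passed 1.5-fold lower at day 2. Close was a wide term here, and took in a day 1 median of −0.13 without IDs that end in _x_at, _s_at or _a_at. With the constant at the 20th percentile, 12 members at least 1.5-fold lower at day 2 also counted as close to 10. The tally therefore does not show that each value held closely. All counts at 2-fold, and all counts at least 1.5-fold higher, were 0 in every setting. The filter settings left each median unchanged, so these values add little to the tally. Of 1089 recomputed values of single members, 1086 moved by less than the probe set spread and 0 of those past 1.5-fold changed sign. The 3 others came with the mean over probe sets, for Dbf4 at day 2 (−0.19 against day 0 and 0.26 against day 1) and Rfc2 (−0.34 against day 1). The spread, 0.30 to 0.34, is larger than the differences of many members, so this count does not show that their signs held. Equal ribosomal protein medians put 40 of the 46 below 0 at day 1 in place of 30. All 138 values of that setting still counted as within the spread. Near the 1.5-fold limit, some members passed it in fewer settings. At day 2 Orc1 passed in 7 of 8 (−0.40 with the mean over probe sets), Dbf4 in 7, Rfc5 in 7 (−0.58 with quantile normalisation) and Orc5 in 6 (up to −0.57), and at day 1 Dbf4 passed in 5 (up to −0.45). The other 6 members passed in all 8 at day 2, as did Pola1 and Orc5 at day 1. No paired analysis was possible because each day has 1 array, and leaving out an array leaves no comparison for its day. The precision of each value is limited by having 3 arrays.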
